A study of Mus musculus with 33 samples.

Results

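One mRNA preparation from differentiating mouse embryonic stem cells was diluted to picogram amounts. The libraries made from 10 pg and from 1 pg of it were compared with those made from 10 ng. These 6 libraries were taken by their labelled amount of mRNA from the 12 of the dilution series and the 33 of the whole series. The stem cells had differentiated in serum-free culture as embryoid bodies, which are cell aggregates. These were dispersed on day 2 and exposed to activin A at 3 ng/mL until day 4. All 6 libraries share this treatment and no untreated control was diluted, so the amount of mRNA is the one labelled difference between them. Each amount has 2 libraries, labelled as technical replicates, so n = 2 is 1 RNA sample measured 2 times and every p-value below rests on technical spread. The stem cell line is not named in the labels.

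Activin A is a ligand of the TGF-β family that signals through the receptors and Smad proteins used by Nodal. In embryoid bodies this pathway directs cells leaving pluripotency towards the primitive streak and from there to endoderm or mesoderm, while cells with little Nodal signal tend towards neuroectoderm. The libraries were made by DP-seq, in which chosen heptamer primers amplify the cDNA. When a dilute sample is amplified, a transcript that is present in few copies may be missed altogether, which is called dropout, and a transcript that primes well may take many reads.

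The 10 ng libraries held 3110866 and 10324740 counts, the 10 pg libraries 2815137 and 3170278, and the 1 pg libraries 427556 and 448933. Levels are given as CPM, a gene's count scaled by the library's total, and 1 count in a 1 pg library is therefore worth more than in any other library. Counts were not divided by transcript length, so CPM rank genes by their share of reads and not by their number of molecules. A gene was called found in a library with at least 1 count. Embryoid body identity rests on lists of marker genes described further on. The primitive streak factor T, the highest of its list, held 2798 and 12263 counts at 10 ng. Of the 18 genes of that list, 17 were in both 10 ng libraries and 4 had at least 30 CPM, with a median of 7.02 CPM. At the same amount 5 of 10 fibroblast feeder genes were in both libraries, of which Postn was the highest with 58 and 139 counts. Of the exocrine pancreas genes 2 of 15 were, and of all genes 12781 of 21844.

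Fewer genes were found at each low amount. At 10 ng, 13125 and 14597 of 21844 genes were found, at 10 pg 9474 and 9456, and at 1 pg 6490 and 6424. The ranges of the 3 amounts did not overlap. With 2 libraries against 2, an exact permutation test, two-sided, cannot give a p below 0.333, so no p is given for these counts. Part of this order follows the totals. Read at the total of the shallowest library, 427556 counts, the 10 ng libraries would show 10239 and 10132 genes, the 10 pg libraries 7934 and 7846, and the 1 pg libraries 6490 and 6349. The order of the amounts was the same at this common depth, with 9164 and 9064 genes at 50 pg between 10 ng and 10 pg.

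**Figure D1:**
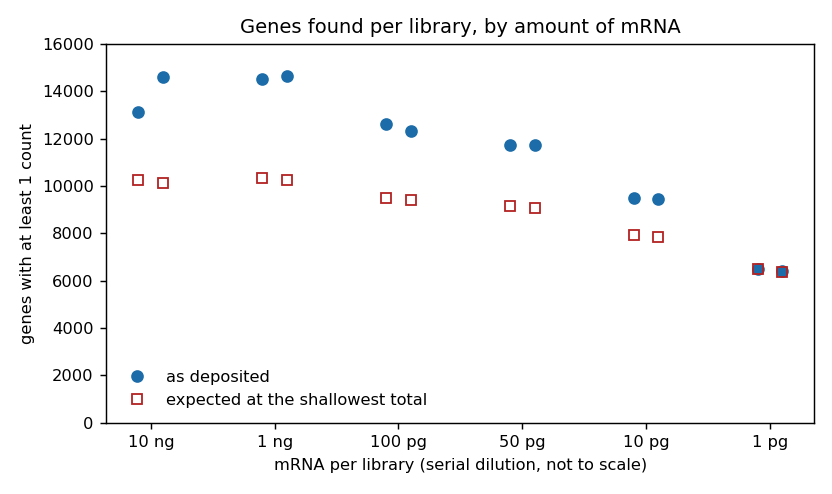
Genes with at least 1 count in each of the 12 libraries of the dilution series (vertical axis), by amount of mRNA (horizontal axis, 2 libraries each). Filled circles are the libraries as deposited and open squares the number expected at 427556 counts; the squares stay near 10000 for 10 ng and 1 ng and reach 6490 and 6349 at 1 pg.

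Genes found in only one library of a pair grew with dilution. Of the genes found in a 10 pg library, 86.8% and 86.9% were found in the other, and at 1 pg the shares were 74.4% and 75.2%. This left 8221 genes in both 10 pg libraries and 4831 in both 1 pg libraries, or 37.6% and 22.1% of all genes. Of the 1 pg genes, 4464 were also in both 10 pg libraries, which is 92.4% of the 1 pg set and 54.3% of the 10 pg set. Low counts were common at 1 pg: 23.9% and 23.8% of the genes found there had a single count, and the median gene found had 6 counts in either library. At 10 pg the medians were 46 and 53 counts. Requiring at least 5 counts left 6723 genes in both 10 pg libraries and 2228 in both 1 pg libraries.

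What was lost was mostly low in the undiluted sample. Of the 12781 genes found in both 10 ng libraries, 8187 (64.1%) were also in both 10 pg libraries, 2118 (16.6%) were in one of them and 2476 (19.4%) were in neither. At 1 pg, 4784 (37.4%) were in both, 2994 (23.4%) in one and 5003 (39.1%) in neither. Genes gained in the reverse direction were few: of 6903 genes with 0 counts in both 10 ng libraries, 8 were in both 10 pg libraries and 4 in both 1 pg libraries. Those 4, named after their values were seen, were Aimp2, Hnrnpf and Hoxd4, with at most 2 counts in any 1 pg library, and Vwc2l, with 3 and 92.

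Dropout followed the level at 10 ng in a graded way. At 10 pg, the share of genes with 0 counts in both libraries was 66.4% among genes of 0.3 to 1 CPM, 39.5% at 1 to 3 CPM, 13.0% at 3 to 10 CPM and 1.76% at 10 to 30 CPM. Above that it was close to nothing: 1 of 4343 genes of at least 30 CPM was missing from both 10 pg libraries and 4318 (99.4%) were in both. That gene was Tmem198b, with 79 and 408 counts at 10 ng. Just inside and just outside the 30 CPM limit, genes of 10 to 30 CPM were found in both 10 pg libraries in 88.0% of cases and genes of 30 to 100 CPM in 99.0%.

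At 1 pg the same gradient lay at higher levels. Genes with 0 counts in both libraries made up 81.7% at 0.3 to 1 CPM, 71.0% at 1 to 3 CPM, 54.0% at 3 to 10 CPM, 27.0% at 10 to 30 CPM, 7.07% at 30 to 100 CPM and 0.466% at 100 to 300 CPM. None of the 649 genes of at least 300 CPM was missing from both. Over the 4343 genes of at least 30 CPM, 3419 (78.7%) were in both 1 pg libraries, 748 (17.2%) in one and 176 (4.05%) in neither. With at least 5 counts required, the share in neither was 24.6%.

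Depth alone gave smaller shares, by little in the lowest band at 1 pg and by much above it. If the 10 ng libraries were read at the totals of the 1 pg libraries, 78.5% and 77.5% of genes of 0.3 to 1 CPM would have 0 counts, against 88.6% and 86.7% measured, and 61.5% would have 0 in both, against 81.7%. Of genes of 3 to 10 CPM, 10.8% and 9.84% would have 0 counts in the respective library, against 70.9% and 68.9%. For genes of 10 to 30 CPM the depth would give 0.247% and 0.192%, against 46.8% and 47.5%. At the totals of the 10 pg libraries, the depth would leave 1.25% and 0.753% of genes of 1 to 3 CPM at 0, against 59.1% and 58.6%. Both libraries of an amount gave nearly the same share in each of these bands, and the measured shares were above those from depth in every band up to 100 CPM. The 50 pg pair, 1 step up the series, still had 92.9% of the genes of 3 to 10 CPM in both libraries, where the 10 pg pair had 56.3% and the 1 pg pair 14.3%.

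**Figure D2:**
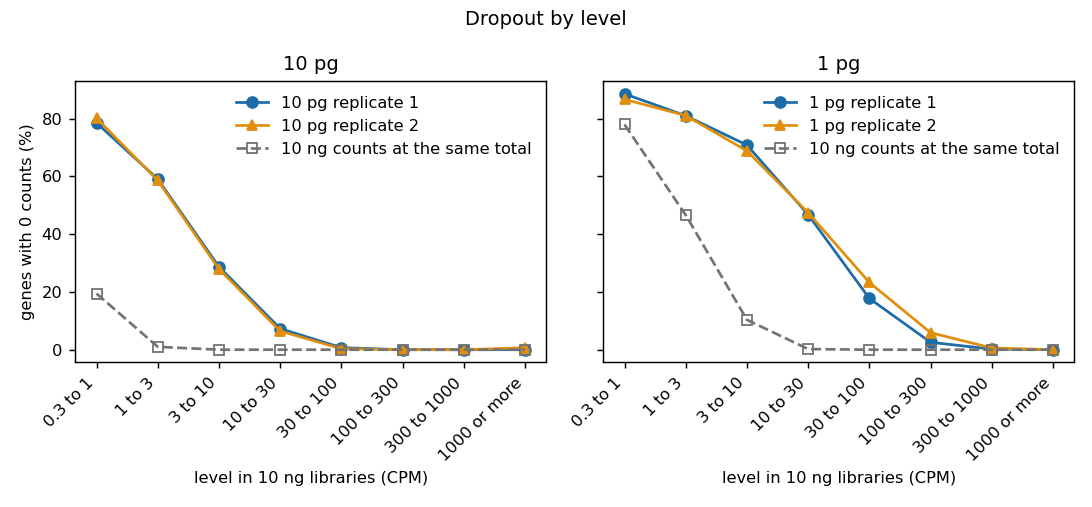
Share of genes with 0 counts in each 10 pg library (left) and each 1 pg library (right), in percent, by the gene's level at 10 ng in CPM. The dashed line is the share that the 10 ng counts would give at the same total, averaged over both libraries of the amount; at 10 to 30 CPM the 1 pg libraries lie at 46.8% and 47.5% and the dashed line below 1%.

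Several well-expressed genes were missing at 1 pg although 10 pg retained them. Dpf2, a subunit of the BAF chromatin remodelling complex, had 510 and 1533 counts at 10 ng, 226 and 300 at 10 pg and 0 in both 1 pg libraries. Prpf39, a pre-mRNA splicing factor, had 491 and 1354, then 337 and 411, then 0 and 0. Fancd2, a DNA repair protein of the Fanconi anaemia pathway, had 422 and 1557, then 81 and 388, then 0 and 0. Litaf and Ttc1 showed the same pattern, with 109 and 139 and with 164 and 65 counts at 10 pg. Against a floor of 3 counts over the pair, the 1 pg level was at least 45.6-fold lower than at 10 ng for Dpf2, at least 45.5-fold for Litaf, at least 42.2-fold for Prpf39, at least 41.9-fold for Fancd2 and at least 29.6-fold for Ttc1. These genes were the 5 largest fitted falls at 1 pg among genes with a symbol and at least 50 counts in each 10 ng library, and all passed edgeR's quasi-likelihood test. A transcript without a symbol, left out of the named genes, had 302 and 1253 counts at 10 ng and 0 and 0 at 1 pg. None of the 5 named genes passed limma with a weight for each amount. The nearest was Dpf2, at an adjusted p of 0.0512 in limma.

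Of the 649 genes of at least 300 CPM, 4 had 0 counts in one 1 pg library: Ppp3r1, the regulatory subunit of calcineurin (5 and 0 counts), Adss (0 and 2), Gars, glycyl-tRNA synthetase (1 and 0), and Fgfr1op2 (187 and 0). These too were named after their values were seen. Fgfr1op2 shows that a gene could be well covered in one library and absent from its technical replicate.

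At 10 pg the 5 largest fitted falls, taken from edgeR's calls by the same rule, were Tmem198b, Coro2b, Ttc9, Atn1 and Txnrd3. Each had 0 counts in both 10 pg libraries. Coro2b, an actin-binding coronin, had 85 and 237 counts at 10 ng and 0 in both 10 pg libraries. The 10 pg level was at least 64.8-fold lower for Tmem198b, at least 50.2-fold for Coro2b, at least 49.2-fold for Ttc9, at least 48.0-fold for Atn1 and at least 48.0-fold for Txnrd3, each against the same floor. All 5 passed edgeR's test and none passed limma.

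Genes missed at 10 pg differed in length and base composition from those found at a like level. Among genes of 30 to 100 CPM, the 23 found in one 10 pg library had a median transcript length of 4927 bases and a median GC content of 53.9%, against 3266 bases and 49.1% for the 2381 found in both. Their median level was also lower, 38.7 against 53.6 CPM. Among genes of 10 to 30 CPM the median length was 3015 bases for genes found in both, 3726 for genes found in one and 4411 for genes found in neither, at median levels of 18.3, 14.4 and 12.6 CPM. At 1 pg the same band gave 3110, 3162 and 3105 bases, and GC contents of 50.4%, 51.1% and 51.6%. The difference in length seen at 10 pg was thus not present at 1 pg in these medians. The part that level plays in it was not tested.

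The reads that remained were held by fewer genes. The 10 genes with the most counts held 8.24% and 8.94% of a 10 ng library, 11.4% and 13.3% of a 10 pg library, and 20.9% and 14.8% of a 1 pg library. The leading 100 genes held 27.1% and 28.4%, then 33.8% and 34.8%, then 43.1% and 38.9%. It took 436 and 402 genes to reach 50% of the counts at 10 ng, 273 and 263 at 10 pg, and 161 and 190 at 1 pg. For each of these measures the libraries of the 3 amounts did not overlap.

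Dicer1, the ribonuclease that cuts microRNA precursors, was the leading gene of both 1 pg libraries. It held 10.5% of one (Wilson 95% interval 10.4 to 10.6) and 4.21% of the other (4.15 to 4.27), where the interval covers counting error only. At 10 ng it held 0.0230% and 0.0218%, ranks 880 and 917, and at 10 pg 1.495% and 2.125%, rank 2 in both. In CPM, Dicer1 read 230 and 218 at 10 ng, 496 and 411 at 1 ng, 1737 and 2303 at 100 pg, 1796 and 1329 at 50 pg, 14951 and 21251 at 10 pg and 104817 and 42120 at 1 pg. The pairs of 10 ng, 1 ng, 10 pg and 1 pg did not overlap one another, while those of 100 pg and 50 pg did. The mean was 80.9 times the 10 ng mean at 10 pg and 328 times at 1 pg. The fitted log2 difference was 6.91 ± 0.49 (SE) at 10 pg and 9.38 ± 0.55 at 1 pg. Dicer1, Tln1 and Prss2 were chosen with earlier results of these data known, so their values are a description and no p is given.

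Tln1, which encodes talin, the adaptor between integrins and actin, followed the same course from a lower start. It read 14.5 and 12.8 CPM at 10 ng, 2862 and 4167 at 10 pg and 10909 and 5970 at 1 pg, where it ranked 4 and 11. The fitted log2 difference was 8.59 ± 0.44 at 10 pg and 10.29 ± 0.47 at 1 pg. Like Dicer1, it was higher in each low-input library than in any 10 ng library.

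Egfr, the epidermal growth factor receptor, was high in both 1 pg libraries and uneven at 10 pg. It read 20.3 and 34.7 CPM at 10 ng, 474 and 449 at 1 ng, 258 and 189 at 100 pg and 320 and 392 at 50 pg. At 10 pg it read 1423 and 36.3 and at 1 pg 11133 and 9344. Egfr was thus already above the 10 ng pair at 1 ng. The second 10 pg library lay next to the 10 ng pair and below each library of 1 ng, 100 pg and 50 pg, and the first lay far above them. The fitted log2 difference was 9.53 ± 1.51 at 1 pg. At 10 pg it was 5.27 ± 1.25, and 0.95 without the first 10 pg library. Egfr was named because it led the 1 pg libraries, which favours a higher level there, so no p is given.

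Prss2, a trypsinogen made by the exocrine pancreas, had 0 and 4 counts at 10 ng, 110 and 286 at 10 pg and 81 and 79 at 1 pg. In CPM this was 0 and 0.387, then 39.1 and 90.2, then 189 and 176, so that 1 pg lay above 10 pg. Between them it read 8.56 and 8.57 CPM at 1 ng, 8.76 and 4.30 at 100 pg and 9.35 and 9.67 at 50 pg, already above 10 ng. With a base of 4 counts in one of the 10 ng libraries, no fitted difference is given. Other genes of that organ did not appear with it: of 15 further exocrine pancreas genes, 0 were found in either 1 pg library and 1 was found in a 10 pg library. Standard RNA-seq libraries of cells given the same activin dose, made from 20 ng, had 0 Prss2 counts in both.

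In limma with a weight for each amount, the log2 difference of Egfr was 3.54 at 10 pg and 9.50 at 1 pg. In the fit of these 6 libraries alone Egfr was not called at either amount. For reference, the standard RNA-seq pair read Dicer1 at 277 and 273 CPM and Tln1 at 161 and 160 CPM. Dicer1 at 10 ng was thus near its standard RNA-seq level and Tln1 at 10 ng was below it. These genes also differed between DP-seq libraries of one amount. A further DP-seq library from 50 pg at the same activin dose, outside the dilution series, read Dicer1 at 386, Tln1 at 57.3, Egfr at 7.02 and Prss2 at 0.468 CPM. The 50 pg pair of the dilution series read Tln1 at 267 and 227, Egfr at 320 and 392 and Prss2 at 9.35 and 9.67 CPM, and Dicer1 at 1796 and 1329. Each of the 4 genes was thus higher in both 50 pg libraries of the dilution series than in the library of that amount outside it. These library kinds have not been scaled to one another. Of 6 tested genes for microRNA processing beside Dicer1, 0 rose and 0 fell at 10 pg in edgeR (2 with an unadjusted p under 0.05) and 0 in limma (3 with an unadjusted p under 0.05). Of 11 tested integrin adhesion genes beside Tln1, 0 rose and 2 fell, Zyx and the second talin gene Tln2, where 3.53% of all genes tested rose and 4.83% fell. Members of the microRNA list went both ways. Ago1, its highest gene at 10 ng, had 544 and 1999 counts there, 656 and 439 at 10 pg and 24 and 77 at 1 pg. Ago2, an Argonaute that microRNAs guide, had 254 and 781, then 53 and 21, then 3 and 18. At 1 pg Tarbp2 had 0 and 128 counts, Prkra 103 and 1 and Dgcr8 2 and 67. The list's median log2 difference at 1 pg was 1.07 in edgeR, against -1.43 for all genes tested, and -0.0049 in limma, against -0.60. At 1 pg 0 rose in either list, and 1 (Xpo5) and 4 (Actn4, Flna, Itga6 and Zyx) fell, where 8.96% of all genes tested rose and 15.9% fell. None of these falls, whose genes are named because they were called, passed limma.

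**Figure D3:**
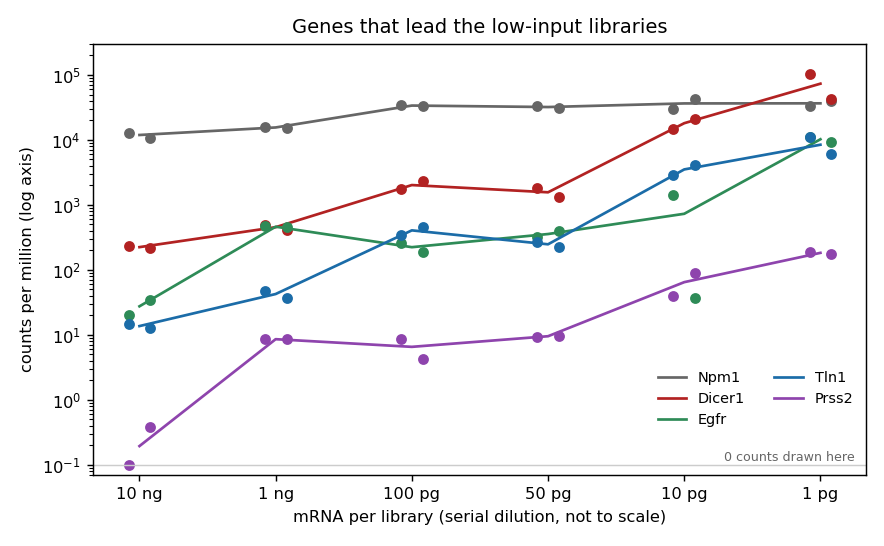
CPM (log axis) of 5 leading genes in the 12 libraries of the dilution series; points are libraries, lines join the means of the pairs, and a library with 0 counts is drawn on the grey line. Npm1 stays between 10842 and 42881 while Dicer1 goes from 218 to 104817, and Egfr splits at 10 pg into 1423 and 36.3.

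Among the other leading genes, some lead the undiluted sample too and some stood further down in it. Of the leading 10, 4 were shared by both 10 pg and both 10 ng libraries, and 3 by both 1 pg and both 10 ng libraries. Npm1, a nucleolar protein that shuttles ribosomal particles, held 1.30% and 1.08% at 10 ng, 3.01% and 4.29% at 10 pg and 3.35% and 3.97% at 1 pg, and ranked between 1 and 4 in all 6 libraries. It rose by 2.19 ± 0.16 on the log2 scale at 10 pg and by 2.62 ± 0.16 at 1 pg. The glycolytic enzyme Gapdh, ranks 12 and 9 at 10 ng, rose by 1.41 ± 0.16 and 1.73 ± 0.16, and the histone H3.3 gene H3f3b, ranks 44 and 46, by 2.35 ± 0.14 and 2.03 ± 0.14. Mdh1, malate dehydrogenase, ranked 73 and 106 at 10 ng and rose by 2.87 ± 0.29 and 2.50 ± 0.28, and Prdx2, a peroxiredoxin, by 2.27 ± 0.21 and 2.01 ± 0.21. The splicing factor Srsf3, the stress-response factor Atf4 and Zmat2, each among the leading 10 of a low-input library and at ranks 24 to 40 at 10 ng, rose by 1.74 to 2.52. These genes were named for leading a library, and most of them for leading a low-input one, which favours a higher level there. Their differences are therefore a description and no p is given.

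Some genes that lead the undiluted sample gave way. Nono, an RNA-binding protein of paraspeckles, held 0.391% and 0.471% at 10 ng, 0.0816% and 0.108% at 10 pg and 0.0732% and 0.0624% at 1 pg. It fell by 1.61 ± 0.24 on the log2 scale at 10 pg and by 1.67 ± 0.24 at 1 pg. Nono was named because it led the 10 ng libraries, which favours a lower level elsewhere, so no p is given. The nucleolar protein Ncl and the nuclear RNA-binding protein Hnrnpu, ranks 7 and 7 and ranks 4 and 2 at 10 ng, did not pass the test at either amount. Their log2 differences were -0.21 and -0.32 for Ncl and -0.53 and -0.36 for Hnrnpu. Npm1, Gapdh, H3f3b and the ribosomal protein and tubulin genes have near-identical copies in the genome, and how reads shared with those were counted is not stated, so their levels are uncertain.

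The leading genes of a pair were shared less at 1 pg than at 10 pg or 10 ng among the leading 100. The leading 10 genes were the same in both 10 pg libraries, while the 10 ng pair shared 8 of 10 and the 1 pg pair 7. Of the leading 100, 89 were shared by the 10 ng pair, 87 by the 10 pg pair and 54 by the 1 pg pair. Among the leading 100 of both 1 pg libraries, 32 were also among the leading 100 of both 10 ng libraries, and at 10 pg it was 49.

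Genes with very many reads in a single 1 pg library were common. Of the leading 100 genes of the first 1 pg library, 13 were at least 10-fold lower in the second, and 14 of the second's leading 100 were at least 10-fold lower in the first. At 10 ng there were 0 such genes in either direction, and at 10 pg 1 and 0. Leng8, the one with the most counts, had 3638 and 61 counts at 1 pg, 5522 and 4658 at 10 pg and 5872 and 21894 at 10 ng. Klhl23 had 16 and 1867 counts and Nceh1 had 2 and 1027. Cbln3, a secreted synaptic protein at 2.57 and 2.13 CPM in the 10 ng libraries, had 932 and 3 counts. The one such gene at 10 pg was Rn7sk, the 7SK small nuclear RNA that restrains transcription elongation, with 6093 and 0 counts. The last 4 genes were named after their values were seen.

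The spread between technical replicates widened from 10 ng to 10 pg and from 10 pg to 1 pg in every band of level. Over the 4343 genes of at least 30 CPM at 10 ng, the SD over genes of the log2 ratio of the 2 libraries, taken of CPM + 1, was 0.28 at 10 ng, 0.40 at 50 pg, 1.14 at 10 pg and 2.86 at 1 pg. At 10 pg it was smallest for genes of 300 to 1000 CPM, at 0.50, and 1.37 for genes of 30 to 100 CPM. At 1 pg it was 1.39 for genes of at least 1000 CPM and 3.09 for genes of 30 to 100 CPM, of which 69.5% differed more than 2-fold between the libraries. The same share was 0.457% at 10 ng. Across genes, Pearson's r of log2(CPM + 1) between the pair was 0.990 at 10 ng, 0.832 at 10 pg and 0.470 at 1 pg, over the genes found in either library. Genes are not independent replicates and these r values are descriptions.

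**Figure D4:**
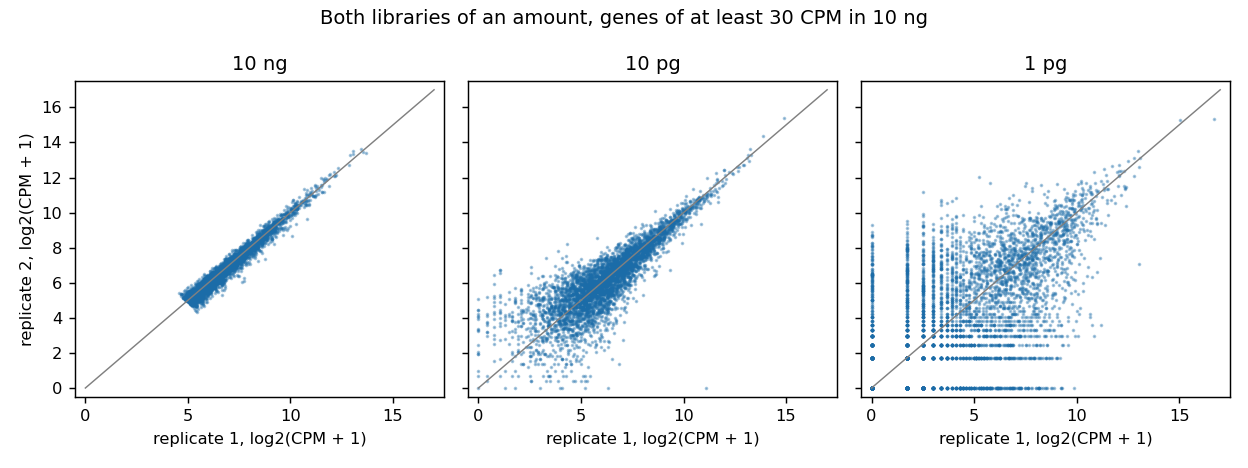
Level in the first against the second library of each amount, as log2(CPM + 1), for the 4343 genes of at least 30 CPM at 10 ng; the line marks equal levels. The cloud widens from an SD of the log2 ratio of 0.28 at 10 ng to 1.14 at 10 pg and 2.86 at 1 pg, where many genes lie on an axis with 0 counts in one library.

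This spread sets what can be called across all genes. In edgeR's quasi-likelihood fit, which shares 1 estimate of the spread among the 12 libraries, 382 of 10817 genes rose at 10 pg (3.53%) and 523 fell (4.83%), and at 1 pg 969 rose (8.96%) and 1721 fell (15.9%). In limma, 1 spread per gene is shared by the 12 libraries and scaled by a weight for each amount. It called 445 rises (4.11%) and 61 falls (0.564%) at 10 pg, and 436 rises (4.03%) and 15 falls (0.139%) at 1 pg. The weight was 0.262 at 10 pg and 0.302 at 1 pg, although the SD of the log2 ratio above was wider at 1 pg. The limma calls at 1 pg therefore do not rest on that pair's own spread. The calls made by both tools were 323 rises and 48 falls at 10 pg, and 434 rises and 14 falls at 1 pg, and no gene was called in opposite directions. Most of edgeR's falls were thus not called by limma. DESeq2 turned the balance at 1 pg, with 1787 rises and 1620 falls (52.5% rises, against 36.0% in edgeR), and gave 972 rises and 1975 falls at 10 pg. Of edgeR's rises, 6 at 10 pg and 117 at 1 pg were of genes that reached the filter on low counts only through that amount's libraries. Of limma's rises, 5 at 10 pg and 62 at 1 pg were. Such genes needed a high value there to be tested at all. The rises called by both tools were not split in this way and may include them. In edgeR's fit of these 6 libraries alone, 0 genes passed at 10 pg, where 1111 had an unadjusted p under 0.05, and 14 rose at 1 pg. Those 14 were Dicer1, Tln1, Npm1, Rpl8, H3f3b, Tbca, Ccna2, Cdc27, Chchd1, Sdhd, Setd6, Ssr1, Uvssa and 5830417I10Rik. Dicer1 and Tln1 were chosen with earlier results known, and Npm1 and H3f3b were named as leading genes. Their place among the 14 is therefore a description and not a test of them. The edgeR counts also moved with single libraries: without the first or second 10 ng library 39 or 33 genes were called at 10 pg and 1027 or 923 at 1 pg, and without the first or second 10 pg library 1774 or 1558 at 10 pg. Both comparisons share the 10 ng libraries. The direct comparison of 1 pg with 10 pg gave 751 rises (6.94%) and 1534 falls (14.2%) in edgeR, and 20 rises and 0 falls in limma, where 1112 genes had an unadjusted p under 0.05. DESeq2 gave 1720 rises and 1269 falls there.

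The median log2 difference over all genes tested was -0.12 at 10 pg and -1.43 at 1 pg as fitted. With genes of 0 counts set at the bound given by 3 counts over the pair, the medians were -0.083 and 0. With the library total as the only scaling the fitted medians were -0.69 and -2.42, and the share of rises among called genes went from 42.2% to 12.8% at 10 pg and from 36.0% to 12.8% at 1 pg. A rise or fall is therefore relative to the scaling.

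Ribosomal protein genes, which code for the structural proteins of the ribosome and are abundant in growing cells, were read as a group. Of 80 such genes, 75 were in both 10 ng libraries, 72 in both 10 pg libraries and 64 in both 1 pg libraries, where all genes of their levels would give 66.7 and 56.4. At 10 pg 16 of 74 tested rose and 0 fell in edgeR (20 and 0 in limma), where 3.53% of all genes tested rose and 4.83% fell. At 1 pg 22 rose and 4 fell (8 and 0 in limma), where 8.96% of all genes rose and 15.9% fell. Their median log2 difference was 0.79 at 10 pg and 0.38 at 1 pg. With the library total as the only scaling it was 0.22 and -0.61, so the sign at 1 pg depends on the scaling, while with either scaling it was above the median of all genes.

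Housekeeping genes, translation factors and glycolytic enzymes held members that rose and members that fell. Of 15 tested housekeeping genes 3 rose and 1 fell at 10 pg, and 3 rose and 4 fell at 1 pg in edgeR, and the shares of all genes were again 3.53% and 4.83% at 10 pg and 8.96% and 15.9% at 1 pg. The elongation factor genes Eef1a1 and Eef2 went in opposite directions, in both tools and at both amounts, and were named for that after their values were seen. Eef1a1, which brings aminoacyl-tRNA to the ribosome, had 2833 and 8864 counts at 10 ng, 4415 and 3983 at 10 pg and 461 and 586 at 1 pg, and rose. Eef2, which moves the ribosome along the mRNA, had 7660 and 28209, then 1313 and 1871, then 145 and 138, and fell. Of 15 tested translation factors, 3 rose and 1 fell at 10 pg and 2 rose and 4 fell at 1 pg. Of 13 tested glycolysis genes, 1 rose (Gapdh) and 1 fell (Pfkl, a phosphofructokinase) at 10 pg, and 2 rose and 2 fell at 1 pg. Pgam1, phosphoglycerate mutase, had 7756 and 30634 counts at 10 ng, 10955 and 9821 at 10 pg and 524 and 1201 at 1 pg.

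Lineage genes were read from 6 lists for the fates open to these cells, with 117 genes in all. At 10 ng, 98 of them were in both libraries. At 10 pg 65 were in both, 18 in one and 34 in neither, and at 1 pg 38 were in both, 28 in one and 51 in neither. If each gene had the share of all genes in its band of level, 63.4 and 36.7 would be in both, so lineage genes were found about as often as other genes of their level. These are bulk levels, in which fewer cells of a type and less RNA per cell cannot be told apart. All amounts were diluted from 1 mRNA preparation, so this limit concerns its levels and not differences between amounts. With at least 5 counts required, 53 were in both 10 pg libraries and 23 in both 1 pg libraries.

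Of the 31 lineage genes with at least 30 CPM at 10 ng, 31 were in both 10 pg libraries, where 99.4% of all genes of that level were, and 24 were in both 1 pg libraries, where 78.7% were. The 7 that were not in both were Sox2, Mixl1, Cxcr4, Prdm1, Smad3, Acvr2a and Gata6, which had 30.1 to 56.3 CPM at 10 ng. Sox2, a transcription factor of pluripotent and neural cells, is the one that was missing from both, with 157 and 377 counts at 10 ng, 34 and 35 at 10 pg and 0 and 0 at 1 pg. Its 1 pg level was at least 12.7-fold lower than at 10 ng. It fell in edgeR (adjusted p 0.00361) and did not pass limma (adjusted p 0.261).

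**Figure D5:**
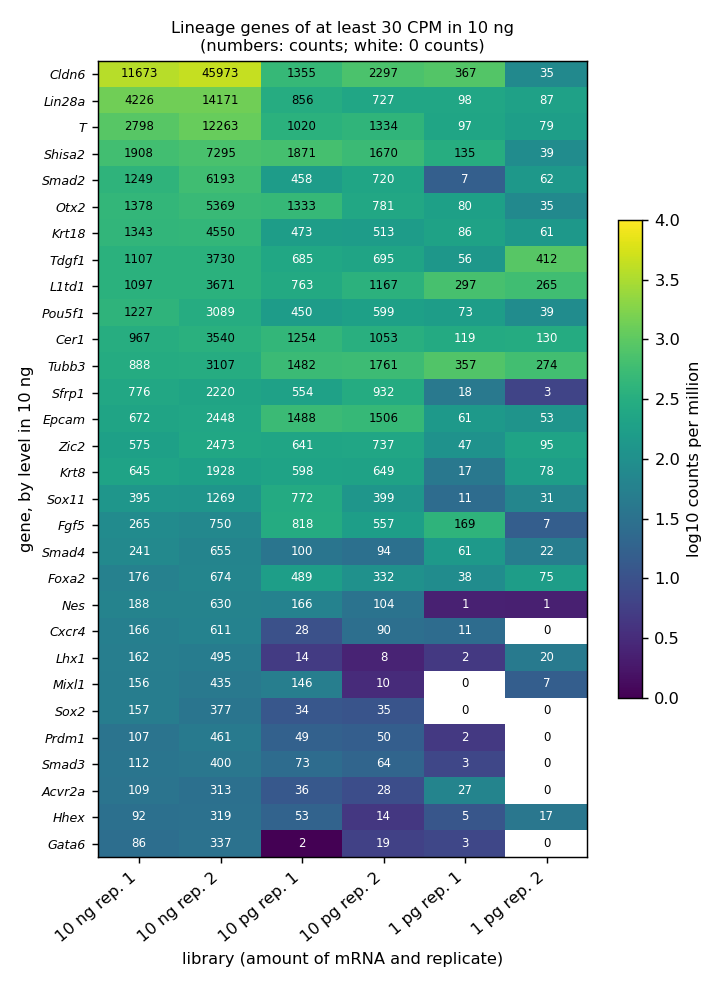
30 lineage genes of at least 30 CPM at 10 ng (rows, by level) in the 6 libraries (columns): color gives log10 CPM, printed numbers are counts and white cells have 0 counts. All 30 genes drawn have counts in both 10 pg libraries; 7 have 0 counts in at least one 1 pg library, and Sox2 has 0 in both.

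Primitive streak genes mark the cells that pass through the streak at gastrulation. Of 18, 11 were in both 10 pg libraries (10.6 at the share of all genes of their levels) and 6 in both 1 pg libraries (5.5 at that share): T, Tdgf1, Lhx1, Evx1, Foxh1 and Sp5. T, the factor that defines the streak, had 2798 and 12263 counts at 10 ng, 1020 and 1334 at 10 pg and 97 and 79 at 1 pg, so its counts at 1 pg were alike in both libraries. Tdgf1, the Nodal co-receptor Cripto, had 685 and 695 counts at 10 pg and 56 and 412 at 1 pg. The homeobox factor Evx1 had 35 counts in one 1 pg library and 1 in the other, and Sp5 had 1 in each. Foxh1, the DNA-binding partner of Smad2, had 85 and 276 counts at 10 ng, 0 and 1 at 10 pg and 2 and 2 at 1 pg. Mixl1, a homeobox gene of the streak and early endoderm, had 156 and 435, then 146 and 10, then 0 and 7. It was uneven already at 10 pg. Of 15 tested genes, 0 rose and 2 fell at 10 pg in edgeR, Foxh1 and Lhx1, and 0 rose and 1 fell at 1 pg. Among all genes tested 3.53% rose and 4.83% fell at 10 pg, and 8.96% and 15.9% at 1 pg. The fall at 1 pg was T, by 1.37 ± 0.29 on the log2 scale (edgeR adjusted p 0.0096). Limma called 0 at either amount, with 2 and 1 genes at an unadjusted p under 0.05.

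Definitive and anterior endoderm genes held many members of high level. Of 20, 16 were in both 10 pg libraries and 12 in both 1 pg libraries, where all genes of their levels would give 16.4 and 12.1, and 13 of the 20 had at least 30 CPM at 10 ng. Cer1, a secreted antagonist of Nodal, BMP and Wnt, had 967 and 3540 counts at 10 ng, 1254 and 1053 at 10 pg and 119 and 130 at 1 pg. Foxa2, the forkhead factor of endoderm and axial mesoderm, had 176 and 674, then 489 and 332, then 38 and 75. Otx2 had 80 and 35 counts at 1 pg, Shisa2 135 and 39, Krt18 86 and 61 and Epcam 61 and 53. Cer1 and Epcam were even between the 1 pg libraries. Sfrp1, a Wnt antagonist with 776 and 2220 counts at 10 ng, had 18 and 3, and Cldn6, a claudin of early epithelia and the list's highest gene with 11673 and 45973 counts, had 367 and 35. Sox17, the endoderm factor that reads low here (14 and 36 counts at 10 ng), had 8 and 42 counts at 10 pg and 0 and 0 at 1 pg.

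In edgeR 2 of 18 tested endoderm genes rose and 0 fell at 10 pg, and 2 rose and 3 fell (Foxa1, Prdm1 and Sfrp1) at 1 pg. The shares of all genes tested were 3.53% and 4.83% at 10 pg, and 8.96% and 15.9% at 1 pg. Foxa2 rose by 1.76 ± 0.42 at 10 pg (edgeR adjusted p 0.0371) and by 2.05 ± 0.43 at 1 pg (edgeR adjusted p 0.01), and the second did not pass limma (adjusted p 0.0526). Epcam rose by 1.72 ± 0.27 at 10 pg (edgeR adjusted p 0.00985). Dkk1, a Wnt antagonist, had 28 and 89 counts at 10 ng, 69 and 10 at 10 pg and 18 and 33 at 1 pg, and rose at 1 pg by 3.70 ± 0.82 (edgeR adjusted p 0.0122). Cldn6 fell in limma alone, by 2.26 ± 0.49 on the log2 scale at 10 pg and by 3.05 ± 0.76 at 1 pg (limma adjusted p 0.0162 and 0.033).

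Genes of the activin and Nodal pathway itself, ligands, receptors, Smads and their feedback inhibitors, were read next. Of 20, 11 were in both 10 pg libraries (11.2 at the share of all genes of their levels) and 5 in both 1 pg libraries (5.89 at that share): Tdgf1, Foxh1, Cfc1, Smad2 and Smad4. Smad2, which carries the activin signal to the nucleus, had 1249 and 6193 counts at 10 ng, 458 and 720 at 10 pg and 7 and 62 at 1 pg. Smad4, its common partner, had 241 and 655, then 100 and 94, then 61 and 22. Smad3 had 3 and 0 counts at 1 pg, and Acvr2a, a type II receptor for activin, 27 and 0. Lefty1, a feedback inhibitor of Nodal, had 27 and 107 counts at 10 ng, 68 and 38 at 10 pg and 0 and 83 at 1 pg. The first 1 pg library thus holds the receptor and not Lefty1, and the second the reverse. Of 15 tested, 0 rose and 3 fell at 10 pg in edgeR, Foxh1, the type I receptor gene Acvr1b and the inhibitory Smad7. At 1 pg 1 rose and 0 fell, and that rise was Lefty1, which had all its 1 pg counts in one library. Beside these, 3.53% of all genes tested rose and 4.83% fell at 10 pg, and 8.96% and 15.9% at 1 pg. Limma called 0 at either amount, with 3 and 1 genes at an unadjusted p under 0.05.

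Mesoderm genes were low at 10 ng, with a median of 1.64 CPM over 18 genes and none at 30 CPM. Of the 18, 7 were in both 10 pg libraries and 2 in both 1 pg libraries, Foxc2 and Bmp4, where all genes of their levels would give 6.06 and 2.06. Foxc2, a forkhead factor of paraxial mesoderm, had 70 and 146 counts at 10 ng, 183 and 514 at 10 pg and 25 and 3 at 1 pg. It rose by 3.22 ± 0.82 at 10 pg (edgeR adjusted p 0.0434). Bmp4 had 22 counts in one 1 pg library and 1 in the other. Of 11 tested, 1 rose (Foxc2) and 0 fell at 10 pg in edgeR, where 3.53% of all genes tested rose and 4.83% fell. Limma called Foxc2 too. At 1 pg edgeR's call was Bmp4, which reached the filter on low counts only through the 1 pg libraries and is therefore not counted as a rise, and limma called 0, with 1 gene at an unadjusted p under 0.05.

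Neuroectoderm genes, which mark the fate taken with little Nodal signal, were in both 10 pg libraries for 15 of 27 and in both 1 pg libraries for 9, where all genes of their levels would give 12.4 and 7.18. Tubb3, a tubulin of neurons that early progenitors also express, had 888 and 3107 counts at 10 ng, 1482 and 1761 at 10 pg and 357 and 274 at 1 pg. It rose by 1.45 ± 0.26 at 10 pg (edgeR adjusted p 0.0145) and by 2.31 ± 0.27 at 1 pg (edgeR adjusted p 0.000937). Zic2, a zinc finger factor of the epiblast and neural plate, had 47 and 95 counts at 1 pg. Sox1, an early neural factor, had 9 and 7 counts at 10 ng, 19 and 13 at 10 pg and 23 and 27 at 1 pg. Its rise at 1 pg was 6.14 ± 0.93 (edgeR adjusted p 0.00295). Hesx1 had 10 and 27, then 52 and 68, then 0 and 0, and rose at 10 pg by 3.35 ± 0.57 (edgeR adjusted p 0.0145); Pou3f1 had 25 and 59, then 55 and 135, then 0 and 0, and rose by 2.77 ± 0.53 (edgeR adjusted p 0.0223). Both rose at 10 pg and had 0 counts at 1 pg, where the floor of 3 counts over the pair was 3.42 CPM. Hesx1, at 2.915 CPM at 10 ng, lay below that floor, so its 0 counts show no loss. For Pou3f1 the 1 pg level was at least 2.01-fold lower than at 10 ng. Nes, the neural progenitor filament nestin, had 188 and 630 counts at 10 ng and 1 and 1 at 1 pg. In edgeR 3 of 20 tested rose and 0 fell at 10 pg, where 3.53% of all genes tested rose and 4.83% fell. At 1 pg 2 rose (Sox1 and Tubb3) and 2 fell (Nes and Sox2), where 8.96% of all genes rose and 15.9% fell. Lhx5, with 1 and 3 counts at 1 pg, reached the filter only through those libraries, and its call in edgeR is not counted.

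Pluripotency and epiblast genes were in both 10 pg libraries for 12 of 25 and in both 1 pg libraries for 8, where all genes of their levels would give 13.6 and 8.43. Pou5f1, the Oct4 factor at the core of the pluripotency network, had 1227 and 3089 counts at 10 ng, 450 and 599 at 10 pg and 73 and 39 at 1 pg. Lin28a, which blocks the maturation of let-7 microRNAs, had 4226 and 14171, then 856 and 727, then 98 and 87. It fell by 1.79 ± 0.25 on the log2 scale at 10 pg and by 1.69 ± 0.26 at 1 pg (edgeR adjusted p 0.00658 and 0.00285), and by like amounts in limma. L1td1, an RNA-binding protein of stem cells, had 1097 and 3671, then 763 and 1167, then 297 and 265, and rose at 1 pg by 1.87 ± 0.27 (edgeR adjusted p 0.00243). Lin28a and L1td1 thus moved in opposite directions at 1 pg, each evenly in both libraries. Fgf5, a growth factor of the primed epiblast, had 818 and 557 counts at 10 pg and 169 and 7 at 1 pg. In edgeR 1 of 18 tested rose (Pou3f1, also in the neuroectoderm list) and 3 fell (Klf2, Klf5 and Lin28a) at 10 pg. At 1 pg 2 rose (L1td1 and Lefty1) and 2 fell (Lin28a and Sox2). The shares of all genes were 3.53% and 4.83% at 10 pg, and 8.96% and 15.9% at 1 pg.

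Over the 6 lists together, 6 of 88 tested genes rose and 7 fell at 10 pg in edgeR (7 and 2 in limma), and 6 rose and 7 fell at 1 pg (4 and 2 in limma), with Bmp4 and Lhx5 left out. Of all genes 3.53% rose and 4.83% fell at 10 pg, and 8.96% and 15.9% at 1 pg, or 852 rises at 1 pg without those tested only through the 1 pg pair. The genes that both tools called were Epcam, Foxa2, Foxc2, Hesx1, Pou3f1, Tubb3 and Lin28a at 10 pg, and Dkk1, L1td1, Sox1, Tubb3 and Lin28a at 1 pg.

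Lineage genes of low level appeared at 1 pg as well. Of the 38 in both 1 pg libraries, 14 were under 30 CPM at 10 ng, and 6 of the 38 were not in both 10 pg libraries: Bmp4, Foxh1, Klf5, Lhx5, Ncam1 and Pax6. Pax6, a factor of the eye and neural tube, had 5 and 14 counts at 10 ng, 0 and 0 at 10 pg and 1 and 13 at 1 pg. Klf5 and Lhx5 had at most 3 counts in a 1 pg library. Presence in both libraries at 1 pg thus included genes resting on a count of 1, and 15 of the 38 had fewer than 5 counts in at least one of the libraries.

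Genes of other cell types were read in the same way. Of 17 extraembryonic endoderm genes 5 were in both 1 pg libraries, where all genes of their levels would give 4.58. Col4a1, the list's highest gene, had 505 and 1887 counts at 10 ng, 377 and 479 at 10 pg and 19 and 54 at 1 pg. Sparc, an extracellular matrix protein, had 461 and 1502, then 375 and 461, then 5 and 2. Of 10 trophoblast genes 1 was in both 1 pg libraries (1.18 at that share), Gata3, with 4 and 1 counts. Of 11 blood and endothelium genes 1 was (0.454 at that share), the erythroid factor Gata1. It had 39 and 123 counts at 10 ng, 33 and 29 at 10 pg and 19 and 16 at 1 pg. The fibroblast feeder genes summed to 26.7 and 22.5 CPM at 10 ng, 14.2 and 3.47 at 10 pg and 4.68 and 4.46 at 1 pg, and the exocrine pancreas genes without Prss2 to 1.29 and 0.484, then 0.355 and 0, then 0 and 0.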

How the data were processed

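Per the file headers, the authors deposited unique read counts per RefSeq transcript, 1 table for each library. The authors deposited some tables as estimated counts, that is with a few unique read counts that are not whole, per the file headers and values; the 9 such values in the 17 libraries read were rounded. Per the labels' protocols, mRNA was isolated, reverse transcribed and amplified with heptamer primers. The sources used here name no aligner, counting rule or genome build, and coordinates are therefore left out. Primer sequences were not used here.

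The 26566 transcript rows were summed to 21844 genes: 25857 rows were named by RefSeq's gene table, 150 by GENCODE's RefSeq table, and 559 keep their transcript ID. The level of a gene is its mean CPM in the 10 ng libraries, in bands with edges at 0.3, 1, 3, 10, 30, 100, 300 and 1000 CPM. Counts expected at a lower total come from exact rarefaction. Transcript lengths and GC contents come from GENCODE transcripts. Intervals are Wilson 95% intervals. They and the floors (3 counts over the pair) cover counting error only, because reads from an amplified library are not separate molecules.

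Main test: edgeR 4.0.16 in R 4.3.3 (TMM, filterByExpr with minimum count 10 and total 15, robust quasi-likelihood fit of all 12 dilution libraries, Benjamini-Hochberg adjustment over 10817 genes, threshold 0.05), two-sided. Both fits were tested on simulated data: with the same spread at every amount few calls were false, and with each amount's own spread the edgeR fit called too many genes, most at 1 pg, and limma fewer but not none. limma 3.58.1 (voom with weights per amount) was therefore added after seeing the data and is printed beside it; a further added setting left out the 1 pg pair. DESeq2 1.42.0, other scalings, no filter, the 6 libraries alone, a replicate block and leaving out each library were also run. Replicate numbers do not pair the libraries: same-numbered libraries deviated together with correlations of -0.018, -0.034 and -0.0045.

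Named genes are Dicer1, Tln1 and Prss2, the 10 leading genes of a library, lineage genes found in both libraries of a low amount (or of at least 30 CPM and missing), and the 5 largest rises and falls with at least 50 counts in each library of the higher group; a selection is printed (1 lineage gene, part of the counts over lists, is not reported here), and others are said to be named after their values were seen. The libraries, genes and lists were chosen with earlier results of these data known. Chi-square per degree of freedom between the libraries of a pair was 5.71 or more over the 6 amounts, above the sampling noise, so no pair was counted as 1 library. Figures used matplotlib 3.10.9 under Python 3.11.15, with numpy 2.4.6, pandas 2.3.3 and scipy 1.17.1.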

Additional observations from a re-analysis of the deposited data

How the results depend on the processing

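The number of genes called at 10 pg, 905, was 1388 with library totals only, 397 with the replicate block, 2947 with DESeq2, 3342 without the 1 pg libraries and 506 with limma; leaving out 1 library gave 33 to 1774, with 39 and 33 without the first and second 10 ng library and 1774 and 1558 without those of 10 pg. At 1 pg, 2690 calls became 451 with limma and 923 to 3921 with 1 library left out, with 1027 and 923 without the first and second 10 ng library. The 1 pg against 10 pg count, 2285, was 20 with limma and 2168 to 3663 with 1 library left out, the highest without the first 1 pg library. With the 6 libraries alone these counts were 0, 14 and 0. The cause was not tested, other than that fewer libraries leave fewer degrees of freedom. With TMMwsp and with no filter the counts stayed within 1.5 times. The replicate block gave 2081 and 1778 calls in the comparisons with 1 pg, and as the numbers do not pair the libraries a call lost under the block is not a weaker effect.

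Requiring at least 5 counts moved the genes in both 1 pg libraries from 4831 to 2228 and the lineage genes there from 38 to 23. The share of genes of at least 30 CPM found in neither library, now those under 5 counts in both, went from 0.023% to 0.184% at 10 pg. At 1 pg it went from 4.05% to 24.6%. Read in a single library instead of both, the share with 0 counts was 0.207% to 0.391% at 10 pg and 10.6% to 14.7% at 1 pg. Levels from 1 ng, transcript rows and leaving out ribosomal RNA kept the dropout and leading-gene shares within their spread.

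Some log2 differences of named genes changed sign. With library totals only these were, at 10 pg, Hmgcs1 (-0.12), L1td1 (-0.15), Leng8 (-0.23), Prpf39 (-0.21), Rpl23 (-0.092) and Rpl23a (-0.28), and at 1 pg Epcam (-0.79), Hmgcs1 (-0.19), Hnrnph1 (-0.38), Rpl23 (-0.44), Rpl23a (-0.20) and Tubb5 (-0.87). With 1 library left out the ranges were -0.91 to 2.03 for Dkk1 and -1.76 to 0.34 for Fancd2 at 10 pg (signs turned without its first library), and at 1 pg -0.11 to 0.30 for Epcam, -0.59 to 2.68 for Foxc2, -3.05 to 3.06 for Leng8 and -0.16 to 0.21 for Tubb5 (turned without the first 1 pg library, and for Epcam, at -0.012, and Tubb5 also without the first 10 ng library) and -1.16 to 0.022 for Hnrnpu (turned without the second 1 pg library). By tool they were Leng8 (-0.00031) and Trappc13 (1.18) with limma, Trappc13 (0.19) with DESeq2 and Tubb5 (-0.0497) with TMMwsp, all at 1 pg. None of these had passed the test except Hmgcs1, Hnrnph1, Rpl23 and Rpl23a at 1 pg. Of the other values of single genes under an alternative, 790 kept direction and side of the threshold, 144 lost the call and 30 gained one.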
